A study of Mus musculus with 59 samples.

Results

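Male mice carrying 1 altered copy of Ash1l (heterozygous, HT) were compared with wild-type males (WT), all of which had received lithium, by RNA sequencing of the prefrontal cortex. The comparison holds 10 of the 59 libraries of the study, 5 labelled HT, lithium, male and 5 labelled WT, lithium, male. All animals were C57BL/6J and were sampled on postnatal day 25, after 3 weeks (days 3 to 24) in which the dam's milk carried the drug. The rest of the study covers vehicle and fluoxetine in both sexes and lithium in females, with 5 libraries a group except 4 for HT lithium females. The sources used here do not say which part of Ash1l is altered, nor name dams or litters. Whether HT and WT males were littermates is thus not known here, and each p-value reflects only how far the libraries themselves vary.

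ASH1L is a histone methyltransferase that places methyl groups on H3K36, a mark of active chromatin that counteracts silencing by polycomb complexes. It is expressed in neurons, and loss-of-function variants of the human gene are associated with autism and intellectual disability. Lithium, a mood stabiliser, inhibits the kinase GSK3, a brake on Wnt signalling, and inositol monophosphatase, an enzyme that recycles inositol. The comparison asks which transcripts differ between the genotypes when both received the drug.

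Under lithium, Ash1l itself was the single gene whose difference between HT and WT males passed the test across the transcriptome. Genes that differed between the genotypes in the other drug and sex groups mostly leaned the same way in the lithium males, with Skida1, Tbx1, Pappa2 and Ash1l lower in all 5 HT libraries than in any WT library. Genes of ribosomal proteins and oxidative phosphorylation leaned higher in HT and genes of cholesterol synthesis leaned lower, by small amounts and with no member past the test.

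The 10 libraries held between 25.61 M and 34.31 M reads (M, 1e6 reads; median 30.02 M), within the range of 24.47 M to 36.32 M over all 59. Mitochondrial transcripts took 5.61 to 8.55% of the reads in HT and 5.78 to 7.70% in WT. Slc17a7, the vesicular glutamate transporter of cortical excitatory neurons, was abundant in every library, between 37625 and 55604 normalised reads. The read count of Xist, which is made from the inactive X of females, lay between 0 and 7.65 normalised reads in all 10. Some libraries stood apart in ways the genotype label does not give. The summed count of 4 Y-linked genes (Ddx3y, Kdm5d, Uty and Eif2s3y) lay between 4660 and 6148 in WT replicates 3, 4 and 5, and between 2859 and 3594 in the other 7 lithium males. HT replicate 4 and WT replicate 2 carried the most transcripts of striatal and myelin markers. In WT replicate 1 the deviation of genes from the mean of all 59 libraries followed their GC content. The Spearman correlation was 0.37 across genes, which are not independent replicates, against -0.20 to 0.057 in the other 9 lithium males. What part these libraries play in the results was not tested further than the values without them given below.

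Ash1l (ENSMUSG00000028053, chromosome 3, 88950622 to 89079375, plus strand, GRCm38) had normalised read counts of 4125, 4234, 4114, 3997 and 4097 in HT replicates 1 to 5. In WT replicates 1 to 5 the counts were 4703, 5076, 5287, 5031 and 5233. Every HT library lay below every WT library, and the HT libraries were the more alike, with a mean of 4114 ± 84.4 (SD, n = 5) against 5066 ± 229 (SD, n = 5). The HT mean was 81.2% of the WT mean. Ash1l fell by 0.30 on the log2 scale (SE 0.056, 95% interval -0.41 to -0.19, limma adjusted p = 0.0295). An exact two-sided permutation test of the 5 against 5 counts gave p = 0.00794, the smallest that this design allows. The adjusted p depended on which libraries entered the fit and on the method. It was 2.9e-05 with library weights, 7.7e-05 after removal of trends in GC and gene length, 0.00022 with DESeq2 and 0.0254 with edgeR. Without WT vehicle female replicate 3 it was 8.1e-05, and without WT vehicle male replicate 2 it was 0.00673. It was 0.0663 with the male libraries alone and 0.934 with the 10 lithium males alone, at the same difference of -0.30. Leaving out 1 of the 10 libraries at a time gave differences of -0.33 to -0.28 and adjusted p-values of 0.0158 to 0.254, and only the fit without WT replicate 1 stayed past the threshold. Without WT replicates 3, 4 and 5 the difference was -0.25 (adjusted p = 0.881).

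The level of Ash1l in HT lithium males was close to that in the other HT groups, whose means ran from 3810 ± 146 (SD, n = 4) in lithium females to 4220 ± 123 (SD, n = 5) in vehicle females. The HT mean was 75.6% of WT in vehicle males, 79.1% in fluoxetine males, 76.8% in lithium females, 78.6% in fluoxetine females and 91.7% in vehicle females. In the vehicle females 1 WT library held 3557 reads of Ash1l, lower than any other library. In the vehicle males 1 WT library held 6218 reads, higher than any other library. The interaction of genotype with drug or sex did not pass the test for Ash1l or for any other gene, as given below.

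**Figure D1:**
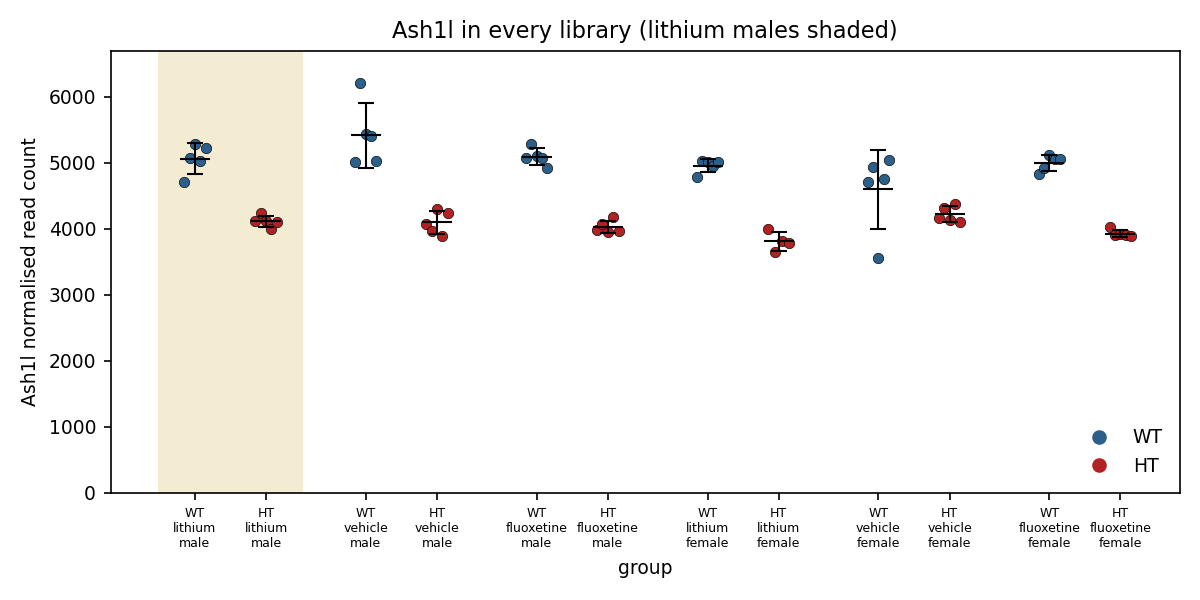
Normalised read count of Ash1l (y axis, linear from 0) in each of the 59 libraries, by genotype, drug and sex (x axis). Points are libraries and bars are the mean ± SD; in the shaded lithium males the HT points lie between 3997 and 4234 and the WT points between 4703 and 5287.

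None of the genes that flank Ash1l passed the test. Within 1 Mb on either side 79 genes were tested, and their median log2 fold change was -0.014. Of these, 3 of 79 had an unadjusted p under 0.05, a share near the 3.7% given below for all genes. They were Lamtor2 (0.20), a scaffold of lysosomal signalling, Clk2 (-0.20), a splicing kinase, and Dcst2 (0.83). The nearest neighbours were at 0.078 ± 0.059 (SE) for Dap3, whose annotated span overlaps the start of Ash1l, and at -0.16 ± 0.10 (SE) for Rusc1. Whether the authors' counting used the strand is not given in the sources used here, so reads of overlapping genes may not be fully separated.

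Across the transcriptome 17875 genes were tested, and 1 gene, Ash1l, passed (0.00559%). At an unadjusted p under 0.05 there were 662 genes (3.7% of those tested), 324 higher in HT (1.81%) and 338 lower (1.89%). For 147 genes (0.822%) the 5 HT and 5 WT libraries did not overlap, 92 with HT above (0.515%) and 55 with HT below (0.308%). This is near the share that 5 against 5 libraries give with no difference. The 3.7% is below the share that a threshold of 0.05 gives with no difference. For genes picked by a small p-value, a lack of overlap only describes their counts. With the read counts recovered from the table, edgeR also called 1 gene, Ash1l, and DESeq2 called 3, which were Ash1l, the predicted gene Gm13302 and S100a5, a calcium-binding protein gene. A fit that weights the libraries by their quality called Ash1l and Skida1.

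The comparison left little room for large differences among well-expressed genes. The median standard error was 0.12 on the log2 scale. The 95% interval lay wholly within a 1.5-fold change in either direction for 74.2% of the genes tested. Among the 8420 genes with a mean of 500 or more normalised reads this share was 98.1%. Among the 4162 genes with a mean under 50 it was 13.4%, so that moderate differences of rare transcripts were not detectable at this depth.

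**Figure D2:**
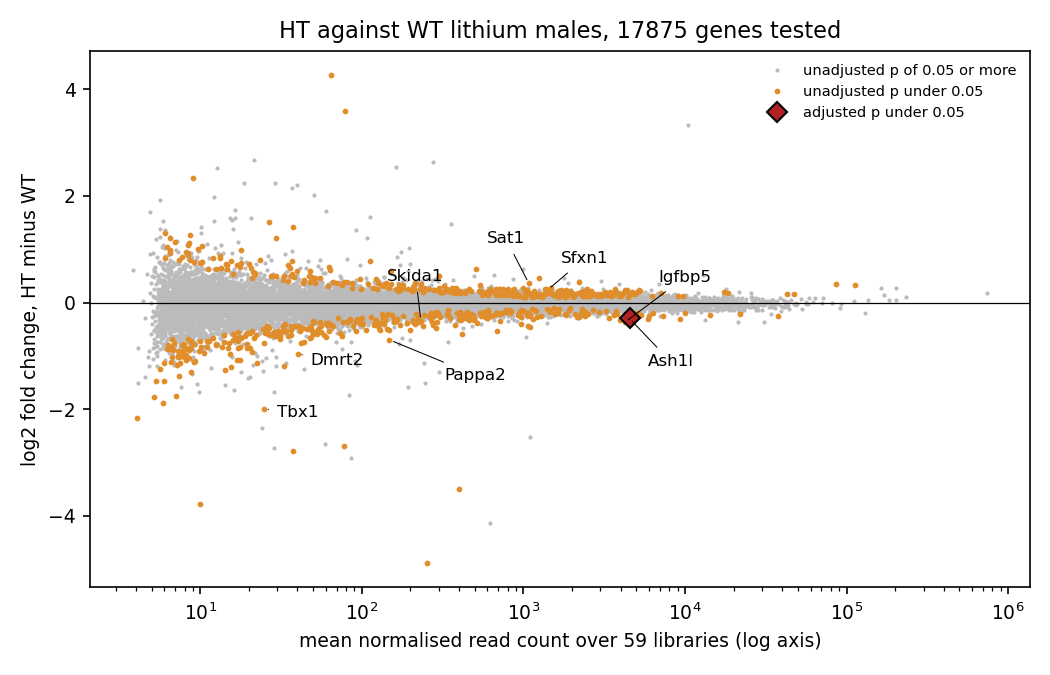
Log2 fold change of HT against WT lithium males (y axis) by mean normalised read count over 59 libraries (x axis, log scale) for the 17875 genes tested. Each point is a gene; orange points have an unadjusted p under 0.05 and the red diamond is Ash1l, at -0.30, the single gene past the adjusted threshold.

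The genes with the smallest p-values after Ash1l are given with their values, since none passed. Skida1 encodes a nuclear protein with a SKI/DACH domain and was grouped here with the polycomb genes. Its counts were 174, 188, 219, 219 and 217 in HT replicates 1 to 5 and 247, 245, 292, 264 and 243 in WT. All HT libraries were below all WT libraries, at a log2 fold change of -0.35 ± 0.077 (SE, limma adjusted p = 0.341). With library weights the adjusted p was 0.0164, the one alternative in which it passed.

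Dmrt2, a transcription factor gene of the doublesex family, had 15.3, 24.8, 37.1, 33.8 and 23.9 reads in HT and 50.5, 52.2, 44.9, 45.7 and 66.7 in WT. The groups did not overlap, and the log2 fold change was -0.97 ± 0.24 (SE, adjusted p = 0.991). Adamts20, a secreted metalloproteinase gene, lay between 379 and 448 in HT and between 495 and 561 in WT, at -0.33 ± 0.099 (SE). The other lower genes by this rule had overlapping groups. They were Erfe (-0.93), which encodes the iron-regulating hormone erythroferrone, Foxl2os (-0.96), a noncoding RNA opposite Foxl2, Abhd1 (-0.55), Emx2 (-0.37), a homeobox gene of the developing cortex, Igfbp5 (-0.37), which encodes a carrier of insulin-like growth factors, and Rspo1 (-0.61), a secreted enhancer of Wnt signalling.

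On the higher side, Sfxn1, which encodes a mitochondrial serine transporter, had 1521, 1524, 1727, 1636 and 1417 reads in HT and 1341, 1391, 1295, 1279 and 1313 in WT. All HT libraries were above all WT libraries, at a log2 fold change of 0.24 ± 0.060 (SE, adjusted p = 0.991). Sat1, the enzyme that acetylates spermidine and spermine, had 1264, 1478, 1547, 1249 and 1120 reads in HT and 1074, 977, 920, 1107 and 1091 in WT, again without overlap, at 0.36 ± 0.095 (SE). Ptcd2, which acts on mitochondrial RNA, lay between 775 and 851 in HT and between 614 and 759 in WT, at 0.25 ± 0.066 (SE). The further higher genes overlapped between the groups. They were Vps36 (0.26), a subunit of the ESCRT-II complex, Psenen (0.26), a subunit of gamma-secretase, Srxn1 (0.20), which repairs oxidised peroxiredoxins, Rpl7 (0.23), a ribosomal protein gene, Ndufaf5 (0.22), an assembly factor of respiratory complex I, and 2 genes of low count, Cnga2 (1.12) and Catsperd (0.98). In the other 5 drug and sex groups the mean difference of HT from WT was 0.021 for Sfxn1, 0.097 for Sat1 and -0.060 for Ptcd2.

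A set of genes was chosen by their differences in the remaining libraries. On the average of the HT against WT differences in vehicle males, fluoxetine males, vehicle females, fluoxetine females and lithium females, 42 genes passed (0.235% of those tested), 25 lower (0.14%) and 17 higher (0.0951%). These differences use no lithium male library. The gene filter and the spread behind each p-value came from all 59 libraries, so the choice is not fully independent of the lithium males. In the lithium males 35 of the 42 had the same sign, 23 of the 25 lower and 12 of the 17 higher. Without Ash1l it was 34 of 41, or 82.9%, beside 53.8% of all 17875 genes (9621 genes). The lower genes other than Ash1l had a median log2 fold change of -0.22 in lithium males and -0.32 in the other groups. The higher genes had a median of 0.064 in lithium males and 0.21 in the other groups. Without WT replicate 5 the median of the higher genes in lithium males was 0.0052, with 9 of 17 of the same sign, and without HT replicate 5 it was 0.030, with 11 of 17. For 36 of the 42 the 95% interval in lithium males held the value of the other groups. Left out 1 library at a time, between 33 and 38 of the 42 kept the sign. Without WT replicates 3, 4 and 5 it was 30 of 42, beside 49.8% of all genes, with 19 of 25 lower and 11 of 17 higher.

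Of the 42 genes, 8 had an unadjusted p under 0.05 in lithium males (3.7% over all genes), all with the sign of the other groups. Groups did not overlap for 4 of the 42 (0.822% over all genes), which were Ash1l, Skida1, Tbx1 and Pappa2. Ash1l was the one that passed over all genes. Promoter windows from RefSeq (GRCm38.p6, 250 bases before to 50 after an annotated start) were matched for 28 of the 42 genes, 35 windows in all. These windows held a median of 16 CG dinucleotides, against 7 over all 32851 windows, of which 94.6% held at least 1. All windows were taken whether or not their gene was tested here. Whether the 28 genes differ in CG number from the other tested genes was not tested. The windows of Tbx1 and Met, 2 of the lower genes that lean the same way in every drug and sex group, are shown with each CG in capitals. The CG, which reads the same on both strands, is a main site of mammalian DNA methylation. The series holds no methylation data, so the windows are a description of sequence. Tbx1 has 2 annotated starts, at windows chr16:18588850-18589149 and chr16:18590622-18590921 on the minus strand, with 26 and 16 CG. The Met window is chr6:17463707-17464006 on the plus strand, with 34 CG, a number reached by 7.73% of all windows.
Tbx1, first window: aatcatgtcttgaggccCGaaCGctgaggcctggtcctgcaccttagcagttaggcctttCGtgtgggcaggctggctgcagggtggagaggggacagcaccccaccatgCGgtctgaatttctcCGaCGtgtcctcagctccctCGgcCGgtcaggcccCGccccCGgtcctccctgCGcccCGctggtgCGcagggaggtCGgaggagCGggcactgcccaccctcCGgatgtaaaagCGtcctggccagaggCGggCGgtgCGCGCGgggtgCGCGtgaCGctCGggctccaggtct
Tbx1, second window: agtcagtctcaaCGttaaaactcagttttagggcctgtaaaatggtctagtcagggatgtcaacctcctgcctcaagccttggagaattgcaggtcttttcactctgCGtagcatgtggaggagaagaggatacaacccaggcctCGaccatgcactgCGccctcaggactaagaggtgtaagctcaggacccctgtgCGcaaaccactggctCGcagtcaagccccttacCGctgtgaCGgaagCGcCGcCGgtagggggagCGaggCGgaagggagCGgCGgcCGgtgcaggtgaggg
Met: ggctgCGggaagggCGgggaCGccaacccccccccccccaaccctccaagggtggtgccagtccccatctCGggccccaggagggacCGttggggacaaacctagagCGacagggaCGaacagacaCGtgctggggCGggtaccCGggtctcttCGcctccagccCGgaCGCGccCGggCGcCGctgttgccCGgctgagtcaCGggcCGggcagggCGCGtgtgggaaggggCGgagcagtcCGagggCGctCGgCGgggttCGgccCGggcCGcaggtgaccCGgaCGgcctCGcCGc

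Tbx1, a T-box transcription factor gene known from the chromosomal deletion of DiGeorge syndrome, was rare in this tissue. It had 17.5, 15.1, 0, 15.2 and 10.5 normalised reads in HT and 45.5, 39.1, 36.8, 25.2 and 29.3 in WT. The highest HT library was below the lowest WT library. The log2 fold change was -2.0 ± 0.74 (SE, unadjusted p = 0.0098, limma adjusted p = 1.0), and -1.21 without HT replicate 3, the library at 0. On the recovered reads it was -1.58 with DESeq2 and -1.55 with edgeR. In the 5 other groups it lay between -2.40 and -1.80.

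Met, the gene of the HGF receptor tyrosine kinase, which marks subsets of cortical projection neurons, had 325, 326, 355, 279 and 362 reads in HT and 336, 324, 367, 453 and 612 in WT. WT replicates 1 and 2 lay inside the HT range, and WT replicates 3, 4 and 5, the libraries high in Y-linked counts, lay above all HT libraries. The log2 fold change was -0.31 ± 0.14 (SE, unadjusted p = 0.0352, limma adjusted p = 1.0), -0.16 without WT replicate 5 and -0.0082 without WT replicates 3, 4 and 5. It was -0.45 on average in the other 5 groups.

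Pappa2, a protease that cleaves carriers of insulin-like growth factors, had 103, 131, 101, 85.2 and 89.7 reads in HT and 188, 136, 151, 133 and 234 in WT. The groups did not overlap, though HT replicate 2 came close to WT replicates 2 and 4. The log2 fold change was -0.70 ± 0.27 (SE, unadjusted p = 0.0122), against -0.55 on average in the other groups. Kirrel2, a cell adhesion gene of the immunoglobulin family, lay between 176 and 316 in HT and between 273 and 425 in WT, at -0.48 ± 0.17 (SE), with WT replicates 2 and 3 inside the HT range. Among the higher genes, Lmo1, a LIM-only transcriptional cofactor gene, was at 0.25 ± 0.13 (SE) and Ndp, which encodes the Wnt receptor ligand norrin, at 0.24 ± 0.12 (SE), and their groups overlapped. The metallothionein genes Mt1 and Mt2, which bind zinc and copper, were at -0.12 ± 0.11 and -0.25 ± 0.13 (SE), and the neurogenic factor gene Neurog2 at -0.51 ± 0.28 (SE).

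Opposite signs were measured for 7 of the 42 genes, none at an unadjusted p under 0.05. Banp, a nuclear matrix protein gene, was at -0.088 ± 0.078 (SE) in lithium males and at 0.20 in the other groups. Sik2, a salt-inducible kinase gene, was at -0.11 ± 0.086 (SE) against 0.17. Tgfb3, a growth factor gene, was at -0.051 ± 0.086 (SE) against 0.18. Lrfn2, a synaptic adhesion gene, was at -0.033 ± 0.10 (SE) against 0.22, Net1 at 0.031 ± 0.10 (SE) against -0.20, and the predicted gene Gm37069 at 0.0077 ± 0.17 (SE) against -0.42. For these 6 the values of the other groups lay outside the 95% intervals of the lithium males, and for the last of the 7, Dnajc1, the value lay inside.

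**Figure D3:**
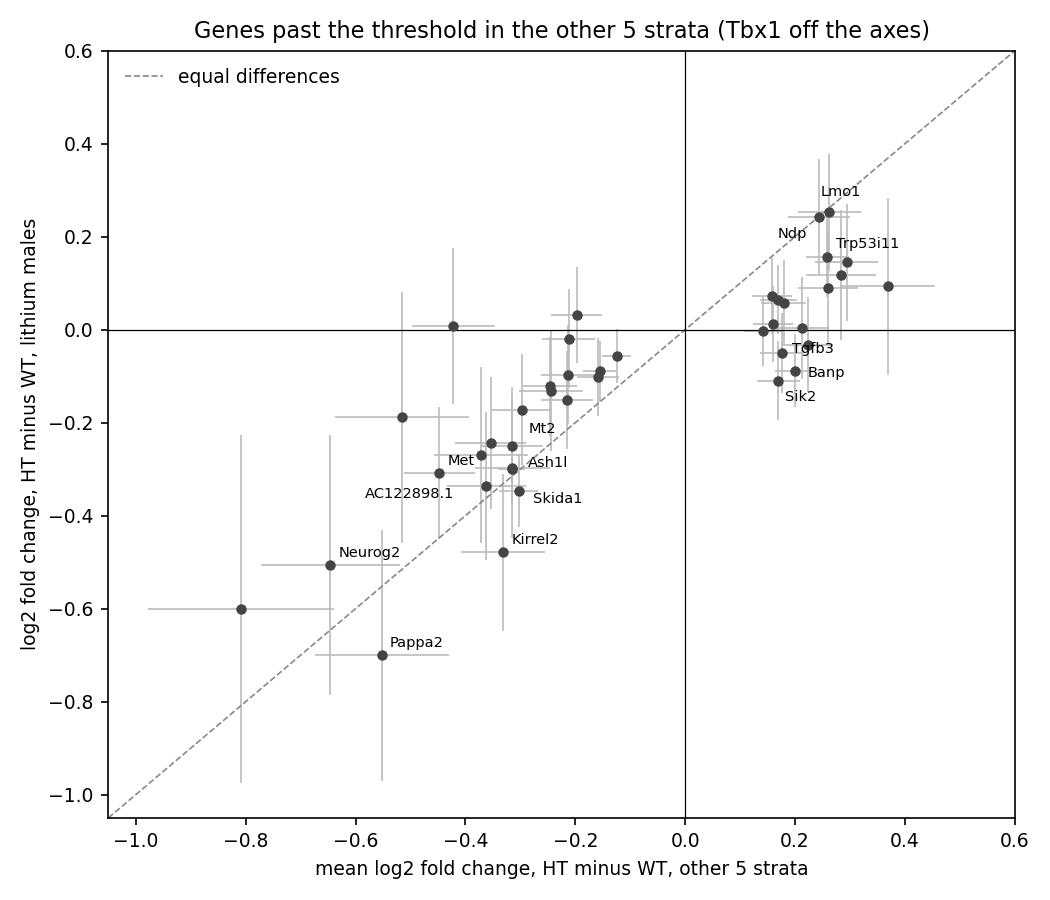
Log2 fold change of HT against WT in lithium males (y axis) and its mean over the other 5 drug and sex groups (x axis) for 41 of the 42 genes past the threshold in those groups; Tbx1, at -2.0 and -1.97, lies off the axes. Points are genes, bars are standard errors and the dashed line marks equal differences; 23 of 25 genes to the left of 0 are also below 0 in lithium males, and 12 of 17 to the right are above 0.

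An earlier analysis of all libraries together reported 23 genes, some of them among those above, as different between HT and WT on average. That average includes the lithium males, so their direction here is not independent of the choice. In the lithium males none of the 23 passed, 10 were positive and 13 negative, and the median was -0.089. Of these genes, 5 were higher and 5 lower at an unadjusted p under 0.05 (1.81% and 1.89% over all genes). Among the higher members were BC064078 (0.79 ± 0.33, SE), a transcribed pseudogene, and Il33 (0.36 ± 0.15, SE), an alarmin of the interleukin-1 family. Il33 had 221, 238, 261, 292 and 292 reads in HT and 183, 245, 185, 193 and 208 in WT, and WT replicate 2 alone lay inside the HT range. Kdm2b, a demethylase of H3K36, was at 0.17 ± 0.064 (SE), Scn3b, a sodium channel subunit gene, at 0.20 ± 0.080 (SE) and Insig1, a brake on sterol synthesis, at -0.21 ± 0.083 (SE).

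Over all genes the median log2 fold change was -0.0072, with 47.3% of genes positive, and gene groups around the function of ASH1L are set beside these values. Of 20 genes for H3K36 methylation and the ASH1L complex, 9 were positive, the median was -0.011 (0.020 after removal of trends in GC and gene length) and Ash1l alone passed. The other writers of the mark were close to 0, with Nsd1 at -0.081 and Setd2 at -0.036, and Setmar, at 0.25, had an unadjusted p under 0.05 as Kdm2b did. Of 34 polycomb genes, 19 were positive and the median was 0.011 (-0.016 without HT replicate 4), with Skida1 the furthest from 0. Of 15 genes of the KMT2 and KDM6 families, which write H3K4 and erase H3K27 methylation, 5 were positive and the median was -0.045. Of 50 autism risk genes, 13 were positive (26.0%) and the median was -0.079. Ash1l was the one member that passed, and no other had an unadjusted p under 0.05. Without WT replicates 3, 4 and 5 the median of this list was 0.014.

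Of 20 genes of GSK3 and inositol metabolism, which include the direct targets of lithium, none passed and 6 were positive, with a median of -0.016 (0.0043 without WT replicates 3, 4 and 5). Gsk3b was at -0.013, Gsk3a at -0.075, and Impa1, the inositol monophosphatase, at 0.093. Of 35 genes of canonical Wnt signalling, none passed, 14 were positive and the median was -0.043. Lef1, a nuclear effector of the pathway, was at -0.35 ± 0.16 (SE) and Dvl2, which relays the signal from the receptor, at -0.19 ± 0.089 (SE), and these 2 of 35 had an unadjusted p under 0.05, beside 3.7% of all genes. Of 15 genes that handle urea, sodium and water, 1 was positive and the median was -0.045. Of 32 immediate early genes, 19 were positive and the median was 0.037. Without WT replicate 5 it was -0.083 and without WT replicate 3 it was 0.11, and the summed counts of the list overlapped, from 46695 to 60915 in HT and from 43978 to 67607 in WT.

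Cytosolic ribosomal protein genes leaned higher in HT. Of 59 tested, 56 were positive (94.9%, beside 47.3% of all genes) and the median was 0.12. At an unadjusted p under 0.05 there were 14, all higher (1.81% over all genes), but none passed. Their summed counts were 202735, 199239, 199097, 187224 and 170568 in HT replicates 1 to 5 and 191803, 176073, 174673, 173540 and 160650 in WT. HT replicates 1, 2 and 3 were above all WT libraries, and the others lay within the WT range. These genes have many processed copies in the genome, and how the authors' counting shared reads among them is not given in the sources used here. Nuclear genes of oxidative phosphorylation leaned the same way, with 64 of 65 positive (98.5%), a median of 0.10 and 9 at an unadjusted p under 0.05, all higher, beside the same 47.3% and 1.81% of all genes. Examples were Atp5c1 (0.23 ± 0.074, SE), a subunit of ATP synthase, and Ndufs4 (0.23 ± 0.074, SE) and Ndufv2 (0.25 ± 0.093, SE), subunits of complex I. Their summed counts were 243702, 254782, 253274, 226374 and 223437 in HT and 249327, 211406, 220372, 219491 and 216836 in WT. WT replicate 1, the library with the GC trend, lay inside the HT range, and the other WT libraries were below every HT library. Without WT replicates 3, 4 and 5 the medians were 0.057 for ribosomal proteins (43 of 59 positive) and 0.056 for oxidative phosphorylation (52 of 65 positive). After removal of trends in GC and gene length they were 0.15 and 0.12. In vehicle males, which share no library with the lithium males, the medians were 0.16 and 0.14. They were 0.18 and 0.055 in fluoxetine males and 0.083 and 0.074 in lithium females. On the average of the other 5 groups, which also holds vehicle and fluoxetine females, they were 0.025 and -0.0055. The 13 genes encoded by the mitochondrial genome had a median of 0.049, or -0.047 without HT replicate 1, and 8 were positive.

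Cholesterol synthesis genes leaned lower in HT. Of 25 tested, 22 were negative, the median was -0.11 and 4 had an unadjusted p under 0.05, all lower (1.89% over all genes), but none passed. The summed counts were 47968, 45051, 48018, 42785 and 42472 in HT and 48267, 51872, 50621, 48154 and 48451 in WT. All HT sums were below all WT sums, although HT replicates 1 and 3 were close to the lowest WT libraries. Hmgcs1, which makes the precursor of mevalonate, had 9390, 8936, 9450, 8950 and 8929 reads in HT and 9574, 11520, 10245, 10318 and 10623 in WT. Its groups did not overlap, at a log2 fold change of -0.19 ± 0.071 (SE, unadjusted p = 0.00912). Idi1 (-0.23 ± 0.11, SE), Insig1 (-0.21) and Sqle (-0.14 ± 0.069, SE), which encodes squalene epoxidase, had overlapping groups. The median of the list was -0.0044 in vehicle males, 0.11 in lithium females and -0.21 in fluoxetine males, and -0.030 on the average of the other 5 groups. Whether these differ from the lithium males was not tested for the list.

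Notch pathway genes leaned lower as well, with 15 of 17 negative and a median of -0.12. Nrarp, a feedback regulator of Notch, had 427, 381, 411, 413 and 410 reads in HT and 421, 482, 465, 532 and 473 in WT, so that only WT replicate 1 lay inside the HT range, at -0.21 ± 0.098 (SE). The summed counts of the list were 7707 to 8650 in HT and 8454 to 9487 in WT, and overlapped. Of 20 genes of the unfolded protein response, 14 were positive and the median was 0.080, with Hspa5, the chaperone BiP, at 0.13.

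**Figure D4:**
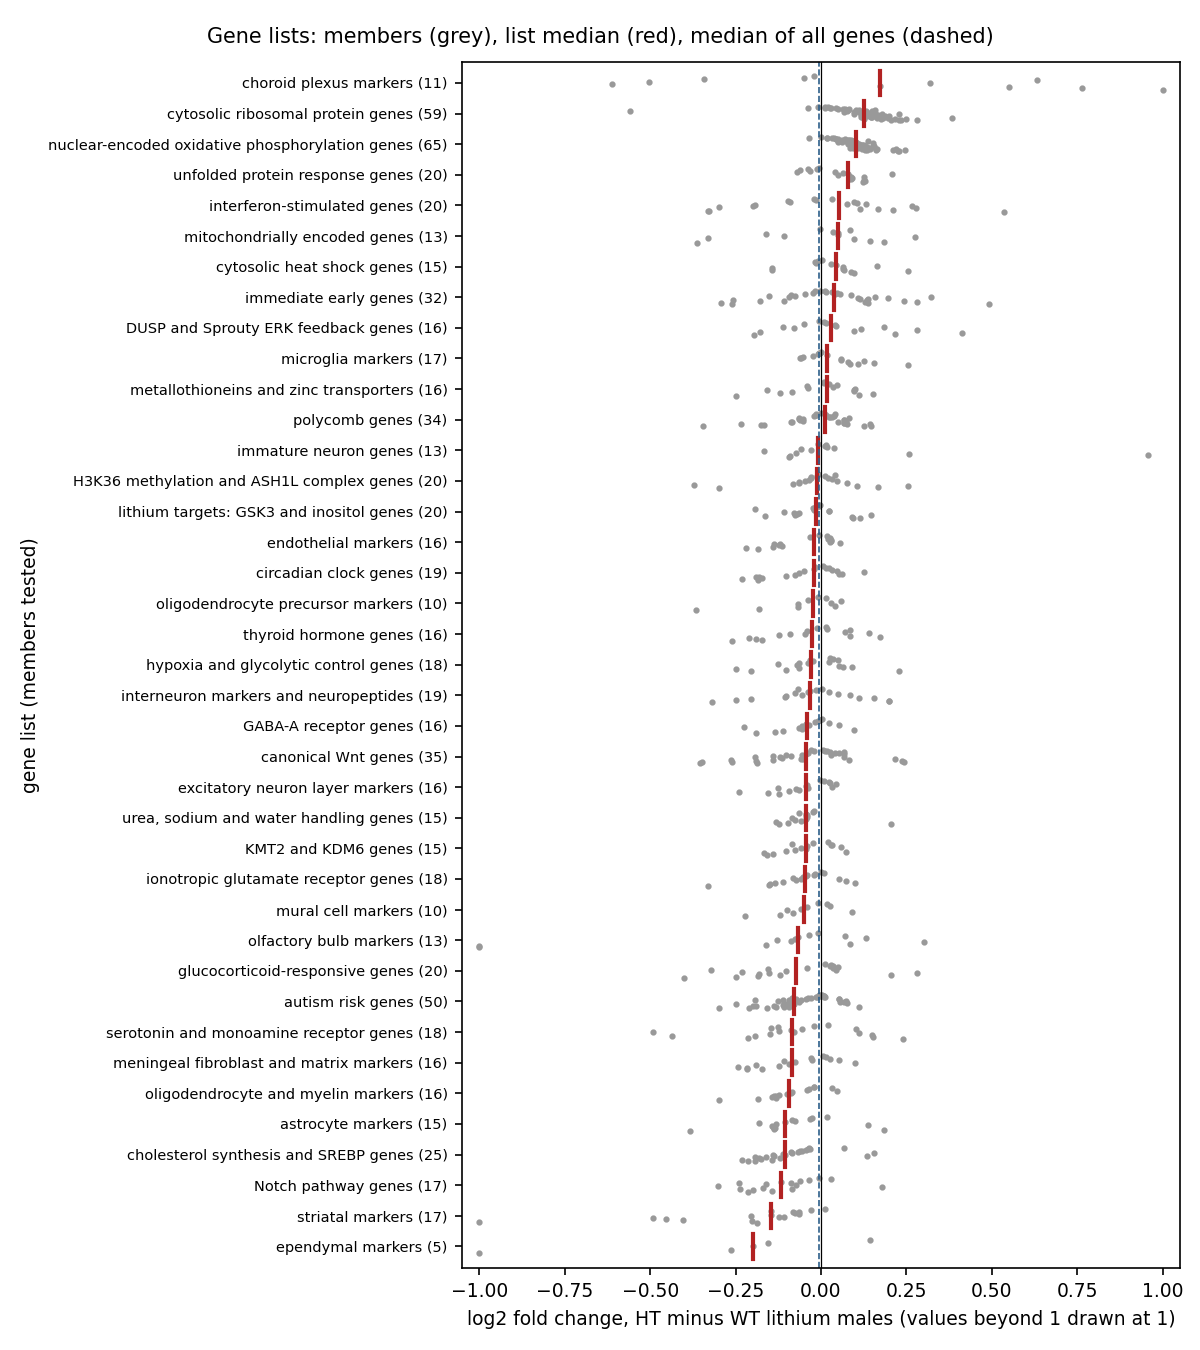
Log2 fold change of HT against WT lithium males (x axis; values beyond 1 in size are drawn at the edge) for the members of 39 gene lists (y axis, with the number of members tested). Grey points are genes, red bars are list medians and the dashed line is the median of all genes; ribosomal protein and oxidative phosphorylation genes lie mostly to the right of 0 and cholesterol synthesis genes mostly to the left.

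Markers of cell types and of neighbouring regions differed more between single libraries than between genotypes. In bulk tissue, fewer cells of a type and less RNA per cell cannot be told apart. Summed counts of 17 striatal markers were 15280, 16481, 16875, 37353 and 15968 in HT and 16237, 39567, 24918, 14867 and 14279 in WT. One library of each genotype, HT replicate 4 and WT replicate 2, thus stood far above the others of its group, followed by WT replicate 3. The median log2 fold change of the list was -0.15, 0.15 without WT replicate 2 and -0.48 without WT replicates 3, 4 and 5. Oligodendrocyte and myelin markers had their highest sums in the same libraries, 225270 and 235417, and their lowest in WT replicate 5, at 74814. Their median was -0.094, 0.094 without WT replicate 2 and -0.50 without WT replicates 3, 4 and 5. Summed counts of 13 olfactory bulb markers overlapped, from 19581 to 24829 in HT and from 16363 to 28246 in WT. The median of that list was -0.066, 0.14 without WT replicate 2 and -0.997 without WT replicates 3, 4 and 5. What part these markers play in the other results was not tested.

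Astrocyte markers had a median of -0.11, with 3 of 15 positive. The transcription factor gene Sox9 was at -0.38 ± 0.15 (SE) and the glycolytic enzyme gene Aldoc at 0.19 ± 0.073 (SE), so that members of the list had both signs. Microglia markers had a median of 0.019 (-0.015 without WT replicate 3), with the lysosomal protease gene Ctss furthest from 0 at 0.25 ± 0.11 (SE). Excitatory neuron layer markers had a median of -0.043 (0.059 without WT replicates 3, 4 and 5) and interneuron markers of -0.031 (0.035 without WT replicate 2). Choroid plexus markers were scattered, from -0.61 for Folr1 to 2.65 for Ttr, and Ttr, the transthyretin gene, ranged from 13.3 to 270 reads in HT and from 2.30 to 80.8 in WT. No marker of any of these lists passed the test.

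**Figure D5:**
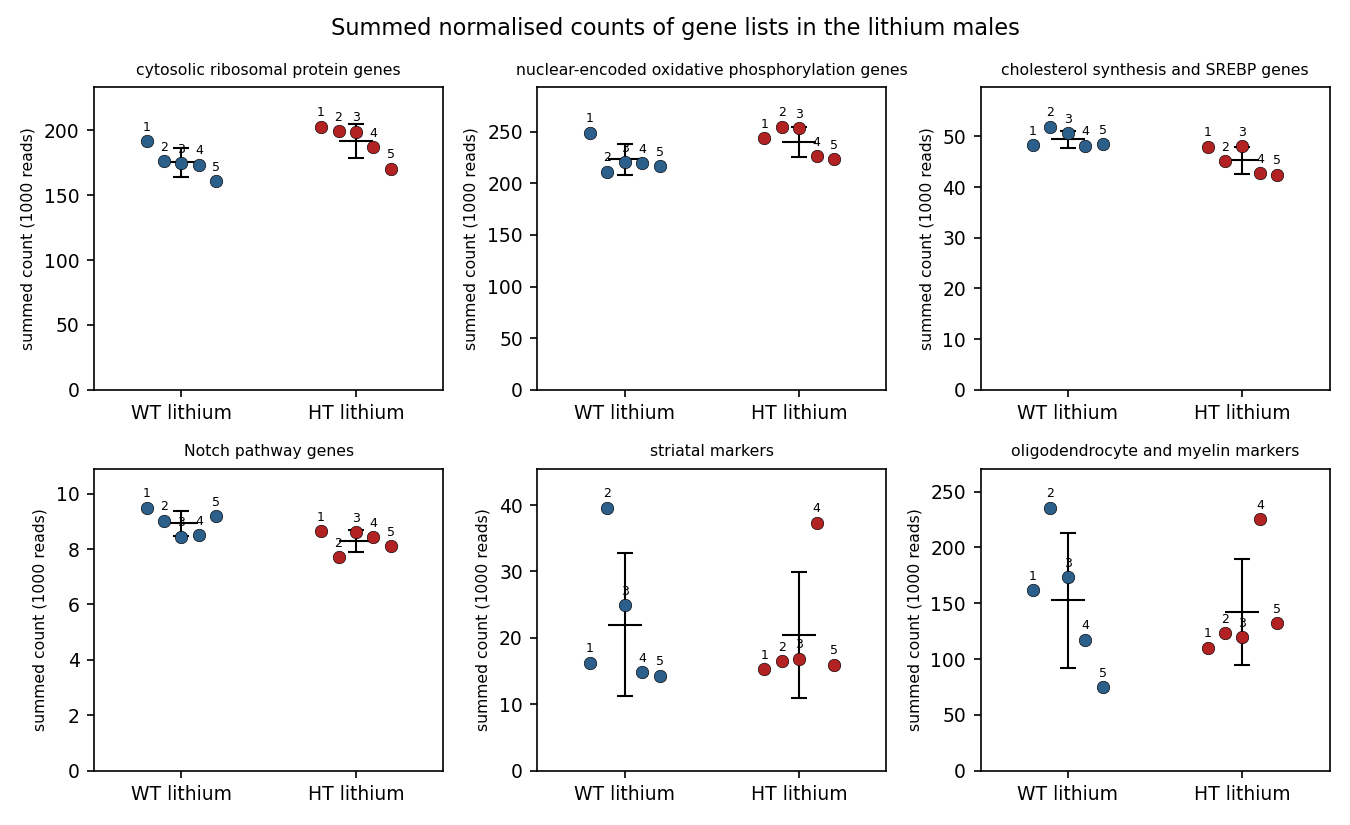
Summed normalised read counts (y axis from 0, in kiloreads) of 6 gene lists in the 5 WT and 5 HT lithium males (x axis). Points are libraries labelled with their replicate number and bars are the mean ± SD; the cholesterol synthesis sums do not overlap between the groups, and the striatal and myelin sums are highest in WT replicate 2 and HT replicate 4.

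Whether the genotype difference itself depended on the drug or the sex was tested with interactions. Against vehicle males, none of 17875 genes passed, and 392 (2.19%) had an unadjusted p under 0.05 by limma, while edgeR called none and DESeq2 called 1 (Eif4a-ps4, a pseudogene). The smallest p belonged to Mid1, a ubiquitin ligase gene, with a difference of 0.44 in lithium males and -1.14 in vehicle males (interaction 1.58 ± 0.41, SE, adjusted p = 1.0). Mid1 counts were 899, 1239, 801, 835 and 680 in HT lithium males and 815, 649, 531, 578 and 675 in WT lithium males, and the groups overlapped. Against lithium females none passed and 1151 (6.44%) had an unadjusted p under 0.05. Vps36 was at 0.26 in males and -0.21 in females (interaction 0.48 ± 0.11, SE, adjusted p = 0.500). Gadd45a, a stress-response gene, was at -0.31 in males and 0.58 in females (interaction -0.89 ± 0.21, SE, adjusted p = 0.500). With library weights 12 genes passed, Vps36 and Gadd45a among them (limma adjusted p = 0.0189 for each). Against fluoxetine males none passed and 1485 (8.31%) had an unadjusted p under 0.05. Cnih1, which helps export cargo from the endoplasmic reticulum, was at 0.093 under lithium and -0.31 under fluoxetine (interaction 0.40 ± 0.080, SE, adjusted p = 0.118). Gas8, a component of motile cilia, was at -0.14 under lithium and 0.31 under fluoxetine (interaction -0.45 ± 0.10, SE, adjusted p = 0.320). DESeq2 called 8 genes here, among them Cnih1 (DESeq2 adjusted p = 0.00155) and Gas8 (DESeq2 adjusted p = 0.0440).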

How the data were processed

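RNA from prefrontal cortex was sequenced after a TruSeq Stranded mRNA preparation, which selects polyadenylated RNA, per the labels' protocols. The submitters' processing notes list DESeq2 1.19.11, Salmon 0.11.2 and R 3.6.0, and GRCm38 as the build, without role or order. The deposited table holds a normalised signal for 18088 genes and 59 libraries; from the values, each is a read number divided by a factor of its library. Whole reads were recovered (within 0.01) for 100% of values in every library, and these reads, which may be rounded estimates, were used for edgeR 4.0.16 and DESeq2 1.42.0 as alternatives. Groups came from the labels. Genes with a normalised count of at least 10 in at least 5 libraries were tested (17875; 213 left out) with limma 3.58.1 in R 4.3.3, on log2(normalised count + 1), with an intensity trend and robust shrinkage of variances, over all 59 libraries with 1 mean per group (47 residual degrees of freedom). Fold changes are on that scale, where those of low genes depend on the pseudocount and on libraries at 0. The Benjamini-Hochberg adjustment covered every gene tested, with a threshold of 0.05, and no gene list was tested. No 2 lithium male libraries of the same genotype were alike within sampling noise (chi-square per degree of freedom from 7.87 to 46.9). Pairs of HT with WT were not checked this way. Positions are from GENCODE M21 (18077 genes matched). Named genes were Ash1l, the 10 with the smallest p-values in each direction, the earlier reported genes, up to 4 members of each of 40 lists and up to 6 per interaction, plus genes of the other 5 groups; Nsd1, Setd2, Gsk3a, Gsk3b and Hspa5 were added for their known roles after values were seen. The comparison, the lists and the genes were chosen with earlier results of these data known, and the Y-linked split and the neighbours of Ash1l were added after these data were seen. The fit was tested on simulated data.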

Additional observations from a re-analysis of the deposited data

Results flagged for a closer look

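Each of 53 named genes was checked in the 5 HT and the 5 WT lithium males for a library far from the rest of its group (gap to the nearest library over the range above 0.71). Of the 106 gene and group pairs 2 were flagged (1.89%). Many of the genes were named for small p-values in these same libraries, so this share does not measure the quality of the libraries. Tbx1 was at 0 in HT replicate 3, while the other HT libraries held 10.5 to 17.5 normalised reads. Abhd1 was at 40.41 in WT replicate 5, while the other WT libraries held 56.4 to 63.4.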

How the results depend on the processing

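Ash1l kept its direction in all 24 alternatives. Its log2 fold change ran from -0.33 to -0.28 when 1 library at a time was left out, where 0 or 1 gene passed, and was -0.30 with the male libraries alone, with the 10 lithium males alone and with a replicate block in those 10, where 0 genes passed. Without the WT replicates 3, 4 and 5 it was -0.25 and 0 genes passed. DESeq2 called 3 genes and library weights 2. DESeq2 called 1 gene for the interaction with vehicle, 1 for that with sex and 8 for that with fluoxetine, and library weights called 12 for sex. For the average of the other 5 groups DESeq2 called 88 genes and library weights 92, against 42. Over the 11 alternatives run for that average the count ran from 30 to 92. The replicate numbers did not pair the libraries: residuals of the same number correlated between -0.15 and 0.018 over 5 pairs. With a replicate block over all libraries 1 gene passed (Ash1l, adjusted p = 0.0489), and with the block in the 10 lithium males its adjusted p was 1.0. Of 2007 values for 85 named results, which do not include Ash1l, 3 reversed. Many of these results were named for small p-values in these same libraries, and several alternatives return the same log2 fold change. The low number of reversals thus does not measure how stable the results are. Rhbdl3, at 0.091, was -0.12 without WT replicates 3, 4 and 5 and from -0.034 (WT replicate 5) to 0.17 (WT replicate 2) with 1 library left out, and Tgfb3, at -0.051, was 0.0037 without WT replicates 3, 4 and 5. The causes were not tested. The set of male libraries alone cannot give a comparison with females, so that alternative was not run there.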

Other observations

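The summed count of the 4 Y-linked genes was 6148, 6096 and 4660 in WT lithium males 3, 4 and 5. Over the other 27 male libraries of the study the median was 3230 and the range 2859 to 5766, and 2 of them, HT vehicle male 4 and HT fluoxetine male 5, were at or above the lowest of the 3. In WT replicate 3, Ddx3y, Kdm5d, Uty and Eif2s3y were at 2112, 1347, 712 and 1977, against 1045, 705, 359 and 912 in HT replicate 1. In WT replicate 5 the first 3 of these were at 2010, 1077 and 629 and Eif2s3y was at 943. No reason for these values was tested.

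In the lithium males 1 gene passed the same test that called 1109 genes of HT against WT in vehicle females, 348 in fluoxetine females, 69 in fluoxetine males, and 1 each in vehicle males and lithium females. In vehicle females 1 WT library held 3557 reads of Ash1l, below every HT library of that group. The 1109 genes were not counted again without it, and whether the comparisons differ in number was not tested. The median size of the difference over all genes was 0.078 on the log2 scale in lithium males, lower than in any of the other 5 comparisons, which ran from 0.095 to 0.15. These comparisons have 5 libraries a group, except 4 for HT lithium females, and share no library with each other. The spread was estimated over all 59 libraries together.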
